A study of Drosophila melanogaster with 6 samples.

Results

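Messenger RNAs of the insulin and TOR pathway were examined through 9 genes: *Thor*, *InR*, *foxo*, *Akt1*, *S6k*, *Tor*, *chico*, *Tsc1* and *gig*. They were taken by symbol from the 17299 gene symbols of the deposited table, and each was the only gene named at its locus. RNA was sequenced from 6 samples of hand-sorted stage 5 embryos, in which the blastoderm is forming its cells. In 3 samples the embryos were laid by females homozygous for *zldZnF2*, an allele made at the endogenous *zelda* (*zld*) locus in which a zinc-binding cysteine of the second zinc finger is replaced by serine. The other 3 samples were embryos of *w1118*, which carry wild-type maternal *zld*. Zelda (ZLD) is the maternally supplied transcription factor that activates the zygotic genome. The comparison thus asks how embryonic mRNA levels differ when the mothers are homozygous for this allele. Their embryos also inherit a copy of the allele in their own genome. Effects of the maternal protein, of the embryo's own copy and of other differences between the lines cannot be told apart here. The genotype of the fathers is not given in the sources used here. The set was chosen by pathway and selected on the FPKM difference of *Thor* between the genotypes, which was already known, and the levels below are therefore a description and carry no test.

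Insulin-like peptides bind the receptor tyrosine kinase encoded by *InR*, which signals through the substrate Chico and phosphatidylinositol 3-kinase to the kinase Akt. Akt keeps the transcription factor Foxo out of the nucleus and relieves the block that the Tsc1 and Gigas (Tsc2) complex places on the GTPase Rheb, the activator of the kinase Tor. Active Tor phosphorylates S6k and the translation inhibitor Thor, the fly 4E-BP, which otherwise sits on the cap-binding factor eIF4E. In flies the pathway is best known for matching growth to nutrition, and *Thor* and *InR* are transcribed under the control of Foxo when insulin signalling is low. In the cleavage embryo most of these components are supplied as maternal mRNA and protein.

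The deposited table holds 1 FPKM value (reads normalized for transcript length and for the number of mapped reads) per locus for *zldZnF2* and 1 for *w1118*. The authors computed each from the 3 samples of a genotype together. No value per sample, spread between replicates or depth can be given, and no difference below has a replicate check. All 2716 loci on chromosomes X, 4 and Y are listed at 0 in both genotypes, and such a 0 was not taken as a missing mRNA. Both values reached 1 FPKM or more at 5524 loci, with a median log2 ratio (*zldZnF2* over *w1118*) of -0.01. Of these, 603 loci (10.9%) were more than 2-fold higher and 407 (7.37%) more than 2-fold lower in *zldZnF2*. The 10 zygotic genes taken as blastoderm markers were between 72.9 and 1927 FPKM in *zldZnF2* and between 69.8 and 1919 FPKM in *w1118*, and each differed by less than 2-fold between the genotypes.

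*Thor* (FBgn0261560) had the ratio farthest from 1 among the 9 genes. It lies on the plus strand of chromosome arm 2L, at 3478434 to 3479612 of the dm6 assembly, and has 2 annotated transcripts of 2 exons each. No other annotated gene overlaps it. Its level was 5.28 FPKM in *zldZnF2* embryos and 34.6 FPKM in *w1118* embryos, 6.55-fold lower in *zldZnF2* (log2 ratio -2.71). In bulk embryos, fewer cells with the mRNA and less mRNA per cell cannot be told apart.

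A ratio this low was rare in the table, but the set was selected on this FPKM difference of *Thor*. Its place among the loci is therefore a description and no support. Among the 5524 loci that reached 1 FPKM in each genotype, 17 had a lower ratio than *Thor*. Of the 2552 loci that were at least as abundant as *Thor* in *w1118*, 10 including *Thor* itself had a ratio as low. In the order of levels among the 9 genes, *Thor* stood at position 7 in *zldZnF2* and at position 3 in *w1118*, below *Tsc1* and *gig*. The loci nearest to it in both levels together, each naming a single gene, were *CG13716*, with 4.03 FPKM in *zldZnF2* and 35.8 FPKM in *w1118*, *zpg*, with 4.44 FPKM in *zldZnF2* and 41.3 FPKM in *w1118*, and *CG6180*, with 7.07 FPKM in *zldZnF2* and 35.5 FPKM in *w1118*. *zpg* encodes an innexin of germ cells. This likeness was measured over the 2 genotype values only, as the distance in log2(FPKM + 1).

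**Figure D1:**
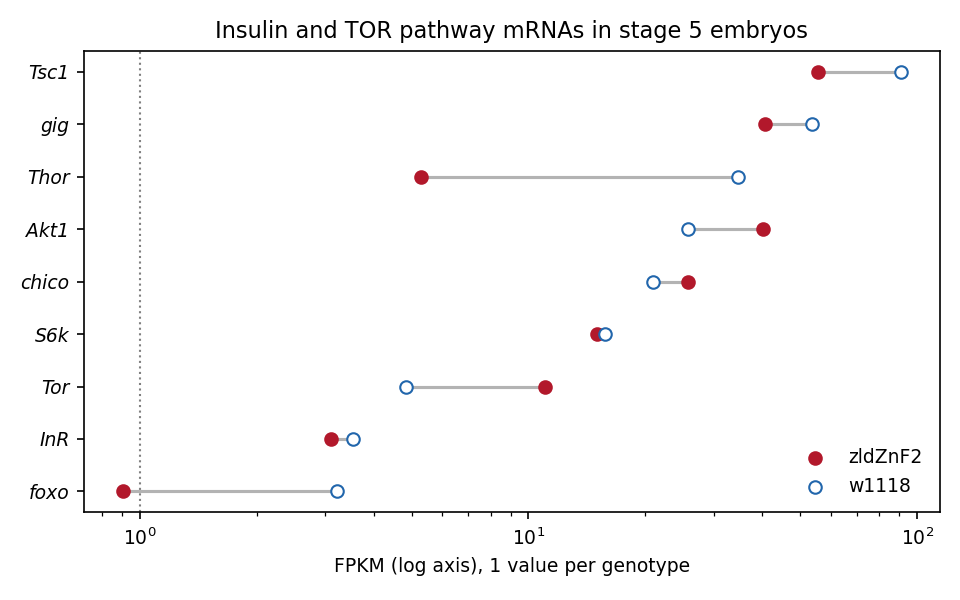
FPKM of the 9 genes in *zldZnF2* (filled points) and *w1118* (open points) on a log axis, with 1 value per genotype made from 3 samples together and a dotted line at an FPKM of 1. *Thor*, at 5.28 in *zldZnF2* and 34.6 in *w1118*, has the longest line, and *foxo* alone crosses an FPKM of 1. *Tor*, *Akt1* and *chico* lie to the right in *zldZnF2*.

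Thor competes for eIF4E, and levels per length of transcript can be set against each other within a genotype. The cap-binding factor itself, *eIF4E1*, was at 65.4 FPKM in *zldZnF2* and 80.8 FPKM in *w1118*. The level of *Thor* was thus 0.0808 of that of *eIF4E1* in *zldZnF2* and 0.428 of it in *w1118*. *cup*, which encodes another eIF4E-binding repressor, active on localized maternal mRNAs, was at 109 FPKM in *zldZnF2* and 138 FPKM in *w1118*, in a locus that it shares with *CG34310*. Its level relative to *eIF4E1* was 1.67 in *zldZnF2* and 1.71 in *w1118*. *cup* was therefore the more abundant of these eIF4E-binding mRNAs in both genotypes, and *Thor* was 0.0485 of *cup* in *zldZnF2* and 0.250 of it in *w1118*.

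*foxo* (FBgn0038197; 3R, 14056945 to 14087978, plus strand, 5 transcripts) encodes the transcription factor that acts on *Thor* and *InR*. It was the least abundant of the 9 genes in both genotypes. Its level was 0.904 FPKM in *zldZnF2* and 3.22 FPKM in *w1118*, which is 3.57-fold lower in *zldZnF2* (log2 ratio -1.83). Since 0.904 lies under the minimum of 1, *foxo* was left out of the counts, and 8 of the 9 genes entered them. With 1 added to each FPKM, the log2 ratio of *foxo* was -1.15.

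*InR* (FBgn0283499; 3R, 21570248 to 21619321, minus strand, 4 transcripts), the receptor gene, was at 3.10 FPKM in *zldZnF2* and 3.53 FPKM in *w1118* (log2 ratio -0.19). This is a ratio close to 1 at a low level, unlike that of *Thor* and *foxo*. The annotation places 2 noncoding RNA genes and 2 transposable elements within *InR*, and none of them shares exonic bases with it. *InR* and *foxo* are also the members with the longest genomic spans, 49074 and 31034 bp, while *Thor* spans 1179 bp.

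*chico* and *Akt1* act between the receptor and Tor. *chico* (FBgn0024248; 2L, 10242512 to 10247078, minus strand), the receptor substrate, was at 25.7 FPKM in *zldZnF2* and 20.9 FPKM in *w1118* (log2 ratio 0.30). The annotated antisense RNA *CR44995* shares 380 of the 3578 exonic bases of *chico*. The strand option of the counting is not given in the sources used here, so reads over these bases cannot be assigned to either gene from the table, which lists the antisense RNA at practically 0 in both genotypes. *Akt1* (FBgn0010379, now *Akt*; 3R, 16099228 to 16105670, plus strand), the kinase downstream, was at 40.1 FPKM in *zldZnF2* and 25.8 FPKM in *w1118*, which is 1.56-fold higher in *zldZnF2* (log2 ratio 0.64). It was the gene with the largest positive difference in FPKM among the 9, of 14.3 FPKM.

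*Tor* (FBgn0021796, now *mTor*; 2L, 13004480 to 13013197, plus strand), the kinase at the centre of the pathway, showed the highest ratio among the 9. Its level was 11.0 FPKM in *zldZnF2* and 4.83 FPKM in *w1118*, 2.28-fold higher in *zldZnF2* (log2 ratio 1.19). Of the 5524 loci, 426 had a higher ratio than *Tor*, which is given as a description only. The genes of its upstream inhibitor were within 2-fold. *Tsc1* (FBgn0026317; 3R, 24130307 to 24134654, plus strand), the most abundant of the 9 in both genotypes, was at 55.7 FPKM in *zldZnF2* and 90.8 FPKM in *w1118* (log2 ratio -0.70). *gig* (FBgn0005198; 3L, 20129181 to 20139010, plus strand), which encodes the GTPase-activating partner Tsc2, was at 40.7 FPKM in *zldZnF2* and 53.6 FPKM in *w1118* (log2 ratio -0.40). Within each genotype both inhibitor mRNAs exceeded *Tor*, *Tsc1* by 5.06-fold in *zldZnF2* and 18.8-fold in *w1118*, and *gig* by 3.69-fold in *zldZnF2* and 11.1-fold in *w1118*. The annotated genes *obst-J* and *CG7335* lie on the other strand within *gig*, share no exonic bases with it and were at or near 0 FPKM in both genotypes.

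*S6k* (FBgn0283472; 3L, 5797549 to 5810931, minus strand), the kinase that Tor activates alongside its action on Thor, had the ratio closest to 1. It was at 15.0 FPKM in *zldZnF2* and 15.8 FPKM in *w1118* (log2 ratio -0.07). The levels of the mRNAs of these Tor substrates thus stood in opposite order in the genotypes. *S6k* was at 2.85 times the level of *Thor* in *zldZnF2* and at 0.455 times its level in *w1118*.

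Of the 8 genes that entered the counts, 1 (*Tor*) was more than 2-fold higher and 1 (*Thor*) more than 2-fold lower in *zldZnF2*, against 10.9% and 7.37% of all loci, or 18.3% past 2-fold in either direction. The choice of the 9 rests on this same comparison, and nothing is read from these counts. The other 6 were within 2-fold, with log2 ratios between -0.70 for *Tsc1* and 0.64 for *Akt1*.

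**Figure D2:**
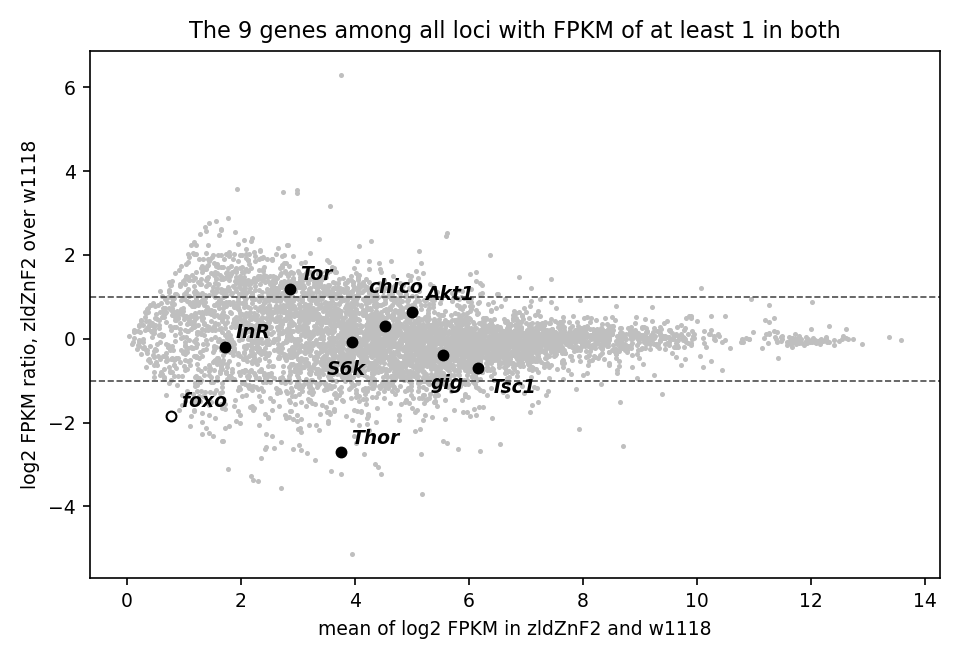
Log2 FPKM ratio (*zldZnF2* over *w1118*) against the mean log2 FPKM of the genotypes for 5524 loci (grey points) and the 9 genes (black points, with *foxo* open because it is under 1 FPKM in *zldZnF2*). Dashed lines mark a 2-fold difference; *Thor*, at -2.71, lies at the lower margin of the grey points, *Tor*, at 1.19, lies above the upper line within them, and the other genes that entered the counts lie between the lines.

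To set these genes against the rest of the pathway, 73 genes were listed by role, of which the 9 above are part. All 73 were found in the table. 12 lie on chromosome X or 4 and are listed at 0, among them *raptor*, *rictor*, *Lst8* and *RpS6*, and a further 12 were under 1 FPKM in at least one genotype. Among the 41 genes outside the 9 that were left, 4 were more than 2-fold higher and 2 more than 2-fold lower in *zldZnF2*, against 10.9% and 7.37% of all loci. Their median log2 ratio was 0.09, against -0.01 over all loci. As a list the rest of the pathway lay near the background.

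The insulin-like peptide genes *Ilp6* and *Ilp7* lie on chromosome X, are listed at 0 and cannot be judged. Among the peptide genes on chromosome arms 2L, 2R, 3L and 3R, *Ilp4*, which is expressed in the embryonic mesoderm, was the only abundant mRNA. It was at 388.7 FPKM in *zldZnF2* and 302.4 FPKM in *w1118* (log2 ratio 0.36). The other 5 peptide genes on these chromosome arms were *Ilp1*, *Ilp2*, *Ilp3*, *Ilp5* and *Ilp8*. They were between 0 and 0.638 FPKM in *zldZnF2* and between 0.0200 and 2.94 FPKM in *w1118*, each lower in *zldZnF2*. All 5 were under the minimum of 1 FPKM in *zldZnF2* and outside the counts. The share of equally low loci that were lower was not computed, and nothing is read from the shared direction. The largest differences among the 5 were those of *Ilp3*, at 0.638 FPKM in *zldZnF2* and 2.94 FPKM in *w1118*, and of *Ilp5*, at 0.202 FPKM in *zldZnF2* and 2.13 FPKM in *w1118*. Both were singled out after their values were seen. *Ilp2*, *Ilp3* and *Ilp5* are peptides of the neurosecretory cells of the larval and adult brain. The table gives *Ilp2*, *Ilp3* and *Ilp4* the same locus bounds but separate values. *ImpL2*, which encodes a secreted protein that binds the peptides, was at 3.89 FPKM in *zldZnF2* and 7.45 FPKM in *w1118* (log2 ratio -0.94). *Sdr*, for a secreted decoy of the receptor, was at 10.4 FPKM in *zldZnF2* and 11.3 FPKM in *w1118*.

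In the list from the receptor to Akt and Foxo, 1 of 9 genes passed the 2-fold limit upwards and none downwards, with a median log2 ratio of -0.05. The shares of all loci were 10.9% and 7.37%. The gene past the limit was *Pi3K92E*, the catalytic subunit of phosphatidylinositol 3-kinase, at 12.7 FPKM in *zldZnF2* and 6.10 FPKM in *w1118* (log2 ratio 1.06). The regulatory subunit gene *Pi3K21B* was at 3.02 FPKM in *zldZnF2* and 2.05 FPKM in *w1118*. The most abundant mRNA of the list, *Pdk1*, for a kinase that phosphorylates Akt, was at 83.0 FPKM in *zldZnF2* and 124 FPKM in *w1118* (log2 ratio -0.58).

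Around Tor itself, 2 of 7 genes passed the limit upwards and none downwards, with a median log2 ratio of 0.09. The shares of all loci were 10.9% and 7.37%, and nothing is read from so few genes. Beside *Tor* the gene past the limit was *PRAS40* (listed as *L*), for a protein that binds the Tor complex. It was at 23.4 FPKM in *zldZnF2* and 10.5 FPKM in *w1118* (log2 ratio 1.16). *Rheb*, the direct activator, was at 46.2 FPKM in *zldZnF2* and 37.9 FPKM in *w1118*. *Tctp* was the most abundant of this list, at 3180 FPKM in *zldZnF2* and 3104 FPKM in *w1118* (log2 ratio 0.04).

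In the list of amino acid and energy input to Tor, 2 of 13 genes passed the limit in each direction, with a median log2 ratio of 0.21. Of all loci, 10.9% were higher and 7.37% lower, and nothing is read from so few genes. *Wdr24* and *Wdr59* encode subunits of the GATOR2 complex, which relays amino acid supply to Tor. *Wdr24* was at 5.15 FPKM in *zldZnF2* and 1.75 FPKM in *w1118* (log2 ratio 1.56), and *Wdr59* at 5.22 FPKM in *zldZnF2* and 2.23 FPKM in *w1118* (log2 ratio 1.23). The lower genes were *Sesn*, for the stress-induced Tor inhibitor Sestrin, at 2.62 FPKM in *zldZnF2* and 5.99 FPKM in *w1118* (log2 ratio -1.19), and *alc*, for the beta subunit of the AMP-activated kinase, at 16.3 FPKM in *zldZnF2* and 38.7 FPKM in *w1118* (log2 ratio -1.24). *SNF4Agamma*, for the gamma subunit of the same kinase and the most abundant of the list, was at 148 FPKM in *zldZnF2* and 159 FPKM in *w1118*.

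Of 10 cap-binding and translation genes, *Thor* alone passed the limit, against 18.3% of all loci in either direction. The median log2 ratio was -0.02. The RNA helicase gene *eIF4A*, the most abundant of them, was at 2963 FPKM in *zldZnF2* and 2823 FPKM in *w1118* (log2 ratio 0.07). None of 7 genes of the list of Foxo and Tor targets and autophagy passed the limit, against the same 18.3%, with a median log2 ratio of 0.17. The triglyceride lipase gene *bmm*, which Foxo activates in flies, was at 107 FPKM in *zldZnF2* and 124 FPKM in *w1118* (log2 ratio -0.21). *REPTOR*, for a transcription factor that Tor restrains, was at 2.54 FPKM in *zldZnF2* and 1.53 FPKM in *w1118* (log2 ratio 0.73).

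**Figure D3:**
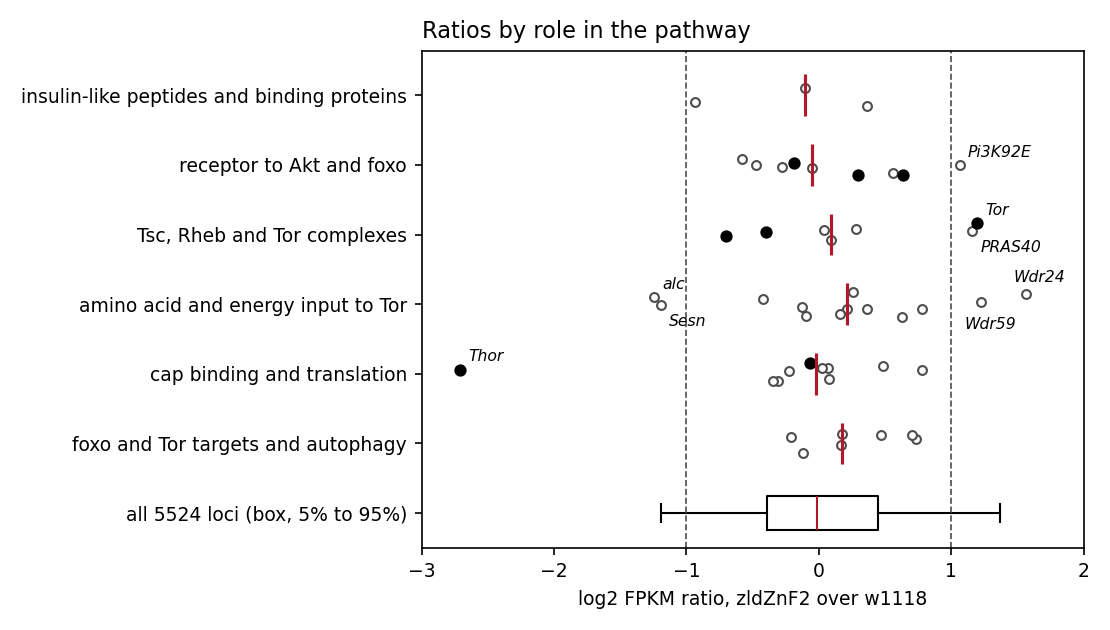
Log2 FPKM ratio (*zldZnF2* over *w1118*) of the pathway genes that reached 1 FPKM in each genotype, by role; black points are members of the 9, open points other genes, red bars the list medians, and the box shows all 5524 loci with whiskers at 5% and 95%. *Thor*, at -2.71, stands alone on the left, and the list medians lie between -0.11 and 0.21.

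The 9 genes fall into several classes of maternal mRNA decay in a published classification that the study adopted. *InR*, *foxo*, *Tor*, *chico* and *Tsc1* are in class IV, mRNAs degraded only after zygotic transcription begins, *S6k* is in class III, which is degraded by maternal factors and also transcribed, and *Thor*, *Akt1* and *gig* are in none of classes II to IV. Over the 945 class IV loci counted here, the median log2 ratio was -0.41. Of these loci, 16.7% were more than 2-fold lower in *zldZnF2* and 1.80%, or 17 loci including *Tor*, more than 2-fold higher. The class IV members were thus spread on both sides of their class median, with log2 ratios of -1.83 for *foxo* (outside the 945), -0.70 for *Tsc1*, -0.19 for *InR*, 0.30 for *chico* and 1.19 for *Tor*. *S6k*, at -0.07, lay below the median of 1.03 over 281 class III loci, of which 266 had a ratio above 1.

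Of 10 genes of differentiated muscle, which the blastoderm does not contain, 7 were lower and 3 higher in *zldZnF2*. A subset of 6 (*Act57B*, *Mlc1*, *Mf*, *Mlc2*, *Tm2* and *Mhc*), picked after their values were seen as those at 3 FPKM or more in *w1118* and under 1 FPKM in *zldZnF2*, were between 0 and 0.336 FPKM in *zldZnF2*, with *Mlc1* and *Mf* at 0, and between 3.40 and 21.7 FPKM in *w1118*. *Act87E* was higher in *zldZnF2*, at 10.6 FPKM in *zldZnF2* and 0.614 FPKM in *w1118*, and so were *Prm*, at 1.91 FPKM in *zldZnF2* and 0.896 FPKM in *w1118*, and *Act79B*, at 0.00880 FPKM in *zldZnF2* and 0 in *w1118*. *Tm1*, which has products outside muscle, was at 504 FPKM in *zldZnF2* and 509 FPKM in *w1118*. The summed level of the list was 518 FPKM in *zldZnF2* and 555 FPKM in *w1118*, and without *Tm1*, left out after its values were seen, 13.3 FPKM in *zldZnF2* and 45.5 FPKM in *w1118*. The insulin and TOR pathway is also used in later embryos, larvae and adults. Which samples carried the sarcomere mRNAs is not shown by 1 value per genotype, and their part in the lower levels of *Thor*, *foxo*, *Ilp3* and *Ilp5* was not tested.

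Marker genes of other tissues were low in both genotypes. The 8 eggshell genes of the ovary were between 0 and 1.14 FPKM in *zldZnF2* and between 0 and 1.20 FPKM in *w1118*. The 5 fat body genes on these arms were between 0.00504 and 1.00 FPKM in *zldZnF2* and between 0 and 0.827 FPKM in *w1118*.

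**Figure D4:**
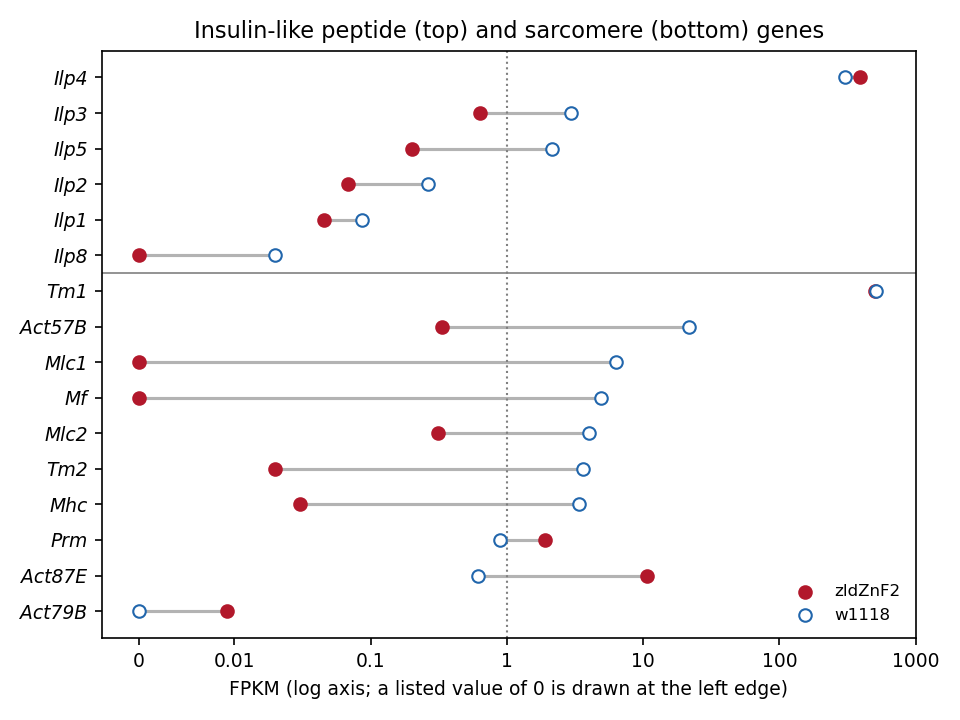
FPKM of 6 insulin-like peptide genes (top) and 10 sarcomere genes (bottom) in *zldZnF2* (filled) and *w1118* (open) on a log axis, with values of 0 drawn at the left edge and a dotted line at 1. *Ilp4* is near 388.7 in *zldZnF2* and 302.4 in *w1118*, while the other peptide genes lie to the left in *zldZnF2*. Of the sarcomere genes, 7 lie to the left in *zldZnF2*, *Tm1* only slightly, and 3 (*Act87E*, *Prm* and *Act79B*) to the right.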

How the data were processed

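RNA of 3 *zldZnF2* and 3 *w1118* samples of stage 5 embryos was sequenced. According to the methods, the authors cleaned single-end reads and aligned them to the dm6 genome (RNA-STAR). Cufflinks then built transcripts, and Cuffdiff compared the genotypes. For each locus the authors deposited an FPKM for either genotype, made from its 3 samples together. The strand and library normalization options are not given in the sources used here. Depth per sample is unknown, so no interval or detection limit was computed. The table also holds the authors' log2 fold changes, test statistics and p-values, which were not used.

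FPKM ratios (*zldZnF2* over *w1118*) were computed without a pseudocount for 5524 loci that reached 1 FPKM in each genotype, with a 2-fold limit. With 1 value per genotype there is no test. Older gene symbols were matched through RefSeq synonyms to genes that overlap the locus. Coordinates are 1-based, from Ensembl release 115. All 9 loci have the annotated start and end. The members and lists were chosen with earlier results of these data known. Genes named are the 9 members, the pathway genes past 2-fold, the most abundant of each list in *w1118*, their direct partners in the pathway, and the 3 loci nearest to *Thor*; the partners were added after their values were seen. Alternatives were pseudocounts of 1 and 0.1, other FPKM minimums, median centring, single-gene loci and fold limits of 1.5 and 3. The calculation was tested on simulated data. Python 3.11.15, NumPy 2.4.6, pandas 2.3.3 and Matplotlib 3.10.9 were used.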

Additional observations from a re-analysis of the deposited data

How the results depend on the processing

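With 1 value per genotype, no sample could be left out. No paired analysis was possible because the table has no values per sample. The log2 ratio of *Thor* was between -2.71 and -2.50 and that of *Tor* between 1.04 and 1.20 under the alternatives tried, and no ratio of the 8 genes counted moved by more than 1.5-fold or changed direction. Without a filter, 1820 loci were higher and 1455 lower than 2-fold, with 2 of the 9 genes lower (*foxo* joined *Thor*) and 13 pathway genes past the limit, 8 of them lower. With a minimum of 5 FPKM in each genotype, 244 loci were higher and 256 lower. *foxo*, *InR* and *Tor* did not reach that minimum. Of the other members 1 (*Thor*) passed and 0 were higher, and 4 pathway genes passed, 2 of them higher. The number of loci that met a changed minimum, or no filter, is not given here. The counts under those settings thus have no share of all loci beside them, and nothing is read from them. With a pseudocount of 1, 457 loci were higher and 335 lower, and 5 pathway genes passed, 3 of them higher. With a minimum of 1 in either genotype and that pseudocount, 615 loci were higher and 511 lower, 2 of the 9 genes and 5 pathway genes were lower, and 3 pathway genes higher. At a limit of 1.5-fold, 1127 of the 5524 loci were higher and 938 lower. Of the 8 genes counted, 4 passed (2 higher, 2 lower), and 16 pathway genes passed (11 higher, 5 lower). At 3-fold, 154 of the 5524 loci were higher and 133 lower. Of the 8 genes counted, 1 passed (0 higher), and 1 pathway gene passed (0 higher, 1 lower). *foxo*, 3.57-fold lower in *zldZnF2*, was left out at both limits by the minimum of 1 FPKM. The median log2 ratio of the peptide list was -0.94 without a filter and -0.79 with the minimum in either genotype.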
